A study of Mus musculus with 2 samples.

Results

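The inhibitor of NF-κB (IκB) genes were followed in peeled mouse epidermis as 6 genes in 2 groups: Nfkbiz, Bcl3 and Nfkbid, whose proteins act in the nucleus, and Nfkbia, Nfkbib and Nfkbie, whose proteins act mainly in the cytoplasm. Members were found by RefSeq accession. Of 18202 genes that could be named and had a spot not marked as an outlier, each of the 6 was read by 1 non-control probe, and each probe had 1 spot per array. The control group was epidermis of Nfkbiz flox/flox mice, whose Nfkbiz alleles carry recombination sites but were not recombined by a transgene. The knockout group was epidermis of Nfkbiz flox/flox; K5-cre mice, which carry the same floxed alleles and a Cre recombinase under the keratin 5 promoter, so that IκBζ, the product of Nfkbiz, is labelled as missing from the epidermis. That promoter is active in basal keratinocytes, and keratinocytes that descend from them inherit the recombined alleles, while resident cells outside that lineage would keep the floxed ones. Skin was taken in the steady state, with no inflammatory stimulus named, and each group was measured on 1 single-colour array. The age of the mice, and the number behind each RNA sample, are not stated in the sources used here.

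IκB proteins share a block of ankyrin repeats that binds the Rel homology domain of NF-κB dimers. IκBα (Nfkbia), IκBβ (Nfkbib) and IκBε (Nfkbie) hold dimers in the cytoplasm until the IκB kinase (IKK) phosphorylates them, after which they are ubiquitinated and degraded by the proteasome. IκBζ, Bcl-3 (Bcl3) and IκBNS (Nfkbid) instead bind p50 or p52 dimers on chromatin and either help or hinder transcription, depending on the gene. In keratinocytes, Nfkbiz is induced by interleukin (IL)-17A, IL-36 and Toll-like receptor ligands, and its product is needed for part of their antimicrobial and chemokine response. Several IκB genes are themselves transcribed under NF-κB, which forms feedback loops.

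With 1 array per group, the differences below could not be checked against replicates, and no test was run. Differences are given as knockout minus control on the log2 scale, after each array was scaled to the 75th percentile of its signal, at 205 for the control and 239 for the knockout. The value after ± is a standard error (SE) from the scanner software's error model. It models the technical error of each spot, is not measured from replicates, and leaves out differences between mice. The model gave the same SE of 0.204 for Nfkbiz, Bcl3, Nfkbia and Nfkbib. The number of arrays limits the precision. Both arrays had 56.2 to 56.3% of probes well above background and no saturated probe. Among 12384 genes measured on both arrays, the median difference was -0.04, and the 5th and 95th percentiles were -0.95 and 0.82. Keratinocyte markers bore out the labelled tissue, and all 10 were well above background on both arrays. Krt5, whose promoter drives Cre, had signals of 52200 and 54400. Markers of cells from outside the epidermis were read as well, as given below.

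RefSeq promoter windows (GRCm38.p6) of Bcl3, Nfkbid, Nfkbia, Nfkbib and Nfkbie are described first, because binding of NF-κB to such promoters is how its feedback on IκB genes works. The 300-base windows, 250 bases before to 50 after each start, were searched on both strands for the 10-base κB consensus motif. Nfkbiz had no window among those searched. A match was found for 4 of the 5 genes, in 4 of their 7 windows, against 8.46% of all 32851 mouse promoter windows. That share is per window, and no share per gene was computed. Nfkbid has 3 annotated starts, and its 2 sites both lie before the second of them. The 250 bases before the start are given below 5′ to 3′ on the gene's strand, with the matches in capitals, for Nfkbid (chr7:30422156-30422405, plus strand), Nfkbia (chr12:55492648-55492897, minus strand) and Nfkbie (chr17:45555450-45555699, plus strand).
Nfkbid: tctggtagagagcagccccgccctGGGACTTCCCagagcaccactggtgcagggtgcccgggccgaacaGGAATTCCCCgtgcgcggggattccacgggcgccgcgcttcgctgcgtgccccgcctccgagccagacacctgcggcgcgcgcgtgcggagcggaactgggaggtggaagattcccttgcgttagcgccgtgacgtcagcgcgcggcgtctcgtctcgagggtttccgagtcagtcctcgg
Nfkbia: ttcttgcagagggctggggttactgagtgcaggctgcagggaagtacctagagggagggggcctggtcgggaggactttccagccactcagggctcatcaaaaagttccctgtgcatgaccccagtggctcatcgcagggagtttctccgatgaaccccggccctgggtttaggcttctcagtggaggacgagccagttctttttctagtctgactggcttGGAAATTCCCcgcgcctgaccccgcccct
Nfkbie: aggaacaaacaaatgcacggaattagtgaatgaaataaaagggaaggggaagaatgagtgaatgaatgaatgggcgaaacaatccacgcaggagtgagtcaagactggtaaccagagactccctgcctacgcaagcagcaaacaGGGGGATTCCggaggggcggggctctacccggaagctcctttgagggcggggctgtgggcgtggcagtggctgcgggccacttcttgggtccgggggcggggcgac
In Bcl3 the match, GGGAAGTCCC, began at base 3 after the start (chr7:19822744-19822753, minus strand), outside the bases before the start. Its letters on the opposite strand, GGGACTTCCC, match as well, and the same 10 bases stand 226 bases before the second Nfkbid start. The Nfkbia match began 29 bases before the start and the Nfkbie match 106 bases before it. The window of Nfkbib held no match. These are letter matches in short windows, and no binding was measured.

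The 3 nuclear IκB genes did not move together. Nfkbiz and Bcl3 were lower on the knockout array, by 2.05-fold and 4.15-fold, and Nfkbid was 6.28-fold higher. The background was 4.40% of measured genes at least 2-fold lower, and 3.03% at least that much higher. Under the main scaling all 3 nuclear genes were past 2-fold, 2 of them lower and 1 higher, whereas none of the 3 cytoplasmic genes was. Of these, Nfkbiz is the gene targeted by design. With median scaling Nfkbiz fell short of 2-fold (-0.72) and the cytoplasmic Nfkbia passed it (1.04).

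Nfkbiz, the targeted gene, had a signal of 3100 (error 310) in the control and 1760 (error 176) in the knockout, a difference of -1.04 ± 0.20. The knockout value was the lower, but it remained 7.36 times the array's 75th percentile, so this probe still read a clear signal there. Where the probe lies relative to the floxed exons was not determined, and a probe outside them would not check the deletion. Of the genes measured, 3.96% were at least as far down. The difference lay close to the 2-fold line, and it was -0.72 under median scaling, -0.999 under quantile normalization and -0.97 under normexp background correction. In whole epidermis, fewer cells of a type and less RNA per cell cannot be told apart.

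Bcl3 encodes a nuclear partner of p50 and p52 homodimers that was first known as an oncogene of B-cell leukaemia. Its signal was 2500 (error 250) in the control and 703 (error 70.3) in the knockout. The difference of -2.05 ± 0.20 was far larger than its SE, and 0.638% of measured genes were as far down. It stayed past 2-fold under every setting tried, from -1.73 with median scaling to -2.06 in the authors' deposited table.

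Nfkbid encodes IκBNS, best known from the development and activation of T and B lymphocytes and from the restraint of cytokine genes in macrophages. Its signal was 33.2 (error 4.65) in the control and 243 (error 24.5) in the knockout, and the difference was 2.65 ± 0.25. Just 18 of the measured genes, or 0.145%, were as far up. The control signal was dim, at 2.61 times the lowest signal that counted as well above background there (12.7). The size of the difference therefore rests on a low control value, and normexp, which adds an offset of 50 and compresses dim signals, gave 1.45. Before background subtraction the spot medians were 87.5 and 292, with local backgrounds of 23 and 25. Genes of its brightness varied more than bright ones: when the measured genes were divided by mean signal into 4 equal bins, 4.62% of its bin were at least 2-fold higher, against 1.78% in the brightest bin, which holds Nfkbiz, Bcl3, Nfkbia and Nfkbib.

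Markers of other cell types also differed between the arrays. Some of these, such as skeletal muscle, red blood cells and endothelium, lie outside the epidermis. How much of such tissue each peel carried was not measured. The 9 T-cell markers were each well above background on both arrays. Their summed signal was 8.74 times the 75th percentile in the control and 13.4 times in the knockout. Against 3.03% of all measured genes, 3 of the 9 were at least 2-fold higher. These were Cd247 (1.20), Itgae (1.07) and Cd69 (1.79), and none of them reached 2-fold with normexp (0.76, 0.79 and 0.94). A second Cd247 probe gave -0.32 ± 0.31. The 7 Langerhans cell markers summed to 67.4 and 94.5 times. Against the same 3.03%, 1 of the 7 was at least 2-fold higher, Cd207 (1.65, and 1.32 with normexp). The 10 keratinocyte markers summed to 1711 and 1543 times and none passed 2-fold. Neutrophil genes other than S100a8 and S100a9 were not well above background on either array. Melanocyte markers summed to 8.56 and 2.02 times, skeletal muscle markers to 5.56 and 1.52 times, and red blood cell markers to 89.5 and 8.93 times, with the knockout array the lower in each. Endothelial markers summed to 1.57 and 0.351 times, with Vwf, 1 of the 6, measured on both arrays (-2.40). Fibroblast markers summed to 12.37 and 10.67 times with none past 2-fold. Macrophage markers summed to 2.05 and 2.84 times, with Adgre1, 1 of the 4, measured on both arrays (0.48) and the others on neither. The part of these cell markers in the differences of Nfkbid and the other IκB genes was not tested.

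**Figure D1:**
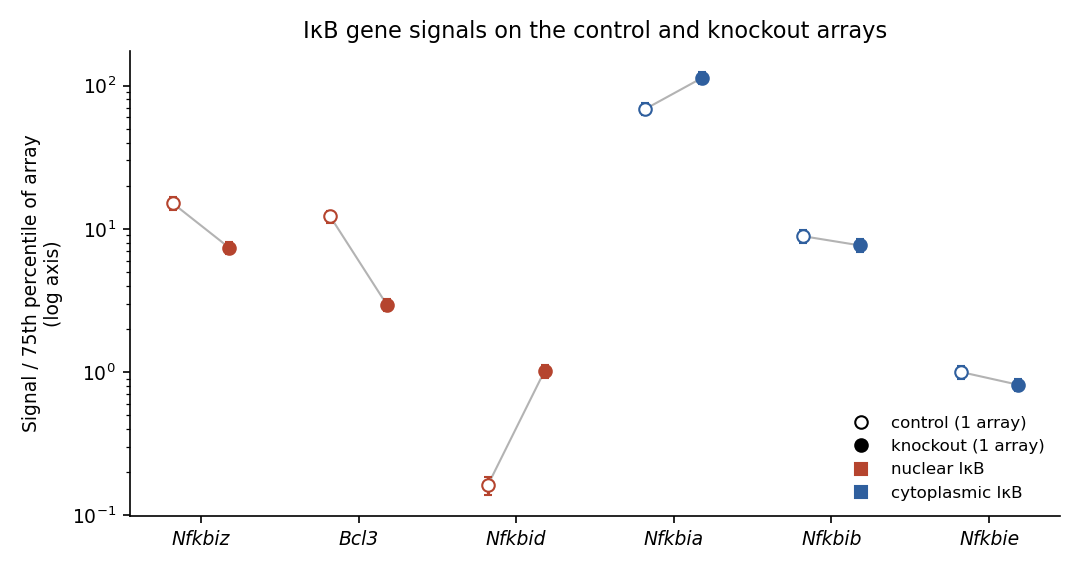
Signal of each IκB gene divided by the 75th percentile of its array (vertical log axis), on the control array (open) and the knockout array (filled), with error bars from the scanner software's error model. Lines join the 2 arrays, and heights of different genes are not comparable because each probe has its own response. Nfkbiz and Bcl3 slope down, Nfkbid slopes up by 6.28-fold, and Nfkbib and Nfkbie are nearly level.

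Among the cytoplasmic IκB genes, Nfkbia was the only one whose difference exceeded 2 SE under the main scaling. IκBα is the fast, NF-κB-induced inhibitor that ends a burst of NF-κB activity. Its signal was 14100 (error 1410) in the control and 27100 (error 2710) in the knockout. After scaling the difference was 0.72 ± 0.20, or 1.65-fold higher, and 6.87% of measured genes were as far up. It passed 2-fold with median scaling alone, at 1.04, and was 0.93 under normexp.

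Nfkbib encodes IκBβ, which is less tightly tied to NF-κB feedback than IκBα. Its signals were 1820 (error 182) and 1830 (error 183) on the control and knockout arrays, nearly equal before scaling. Scaling placed it at -0.21 ± 0.20, and the sign turned under median scaling (0.11). Nfkbie encodes IκBε, a later and slower feedback inhibitor. Its signals were 205 (error 21.0) and 195 (error 19.9), a scaled difference of -0.29 ± 0.21 that became 0.03 under median scaling. Of measured genes, 34.5% were as far down as Nfkbib and 28.6% as far down as Nfkbie, so both lay in the bulk of the distribution.

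The gap between members on the same arrays does not depend on a scaling factor, but it does depend on the background correction where a signal is dim, as for Nfkbid in the control. Nfkbid and Bcl3, both nuclear, were furthest apart: Nfkbid lay 4.70 ± 0.32 above Bcl3, a 26.03-fold difference between their changes. With normexp that log2 gap was 3.42. Nfkbid lay 3.69 ± 0.32 above Nfkbiz, or 2.43 with normexp, and Nfkbiz lay 1.01 ± 0.29 above Bcl3. Nfkbia lay 1.76 ± 0.29 above Nfkbiz and 2.77 ± 0.29 above Bcl3, but 1.93 ± 0.32 below Nfkbid. With normexp the gap between Nfkbid and Nfkbia was 0.53. Within the cytoplasmic group Nfkbia lay 0.93 ± 0.29 above Nfkbib and 1.01 ± 0.29 above Nfkbie. Nfkbib and Nfkbie differed from each other by 0.08 ± 0.29, within error. Of the 15 pairs, 14 had a gap over 2 SE. That SE is technical only, and the share of such pairs among other measured genes was not computed.

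A broader yardstick is the disagreement between different probes of a gene. In 4063 genes with several measured probes, the differences at the 2 brightest probes were a median of 0.24 apart, with a 95th percentile of 1.10. The gap exceeded that value in 9 of the 15 pairs of IκB genes. These pairs share genes and so are not independent, and the share among pairs of other measured genes was not computed. With normexp 9 pairs again exceeded 1.10, a value set under the main scaling and not under normexp, but the gap between Nfkbid and Nfkbia was below it. For genes at least 2-fold apart at the brightest probe, the second probe had the opposite sign in 9.72% (24 of 247). The IκB genes have no second named probe, so this check could not be made for them.

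**Figure D2:**
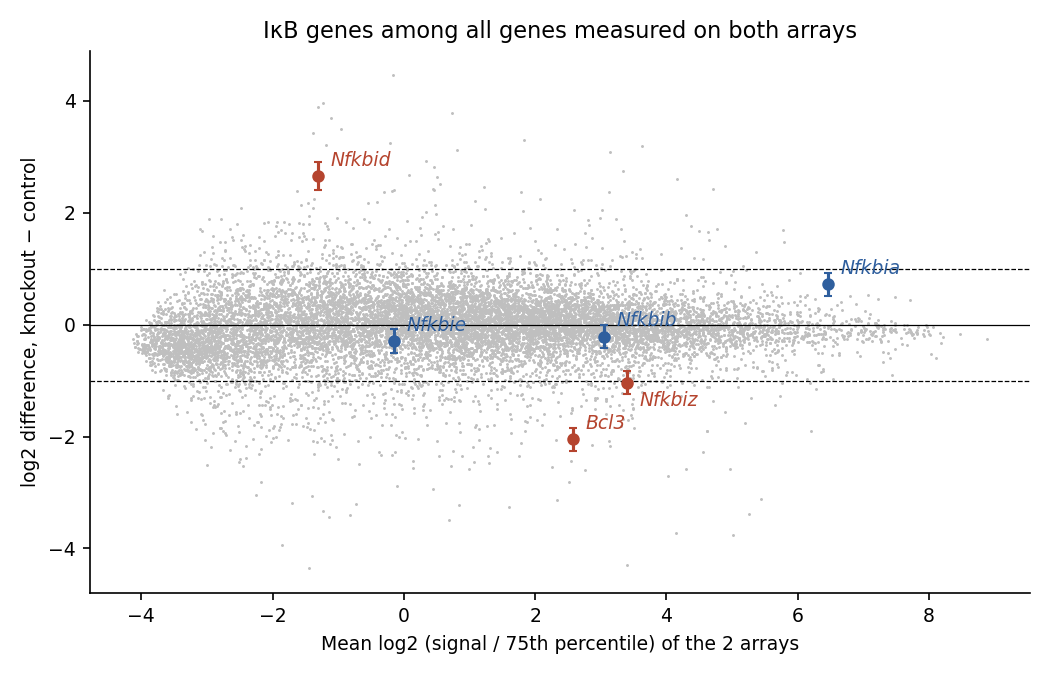
Difference (log2, knockout minus control) against the mean log2 scaled signal for 12384 genes measured on both arrays (grey), with the nuclear (red) and cytoplasmic (blue) IκB genes and their error-model SE. Dashed lines mark 2-fold. Nfkbid lies near the upper edge of the cloud at 2.65 and Bcl3 near the lower edge at -2.05, while Nfkbib and Nfkbie lie within it.

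None of the 6 spots carried a mark for non-uniformity, outlier status or saturation on either array. Measured spots within 3 rows and 3 columns had a median difference of -0.19 around Nfkbiz (26 spots), 0.03 around Bcl3 (21 spots) and -0.36 around Nfkbid (28 spots). Of those neighbours, 2 were at least 2-fold lower around Nfkbiz, 1 was around Bcl3, and none was 2-fold higher around Nfkbid. Over all measured spots the median was -0.07, with 5.58% at least 2-fold lower and 3.03% at least 2-fold higher. The median around Nfkbiz lay on the same side as the gene itself, and that around Nfkbid on the opposite side.

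The 2-fold calls of 2 IκB genes depended on the setting. Bcl3 and Nfkbid were past 2-fold in each of the 6 settings plotted. Nfkbiz fell short of it under median scaling, quantile normalization and normexp, where 2.37%, 3.71% and 1.87% of measured genes were at least 2-fold lower. Nfkbia passed it with median scaling, where 7.70% of genes were at least 2-fold higher, and not with quantile normalization or normexp, where 3.67% and 1.48% were.

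**Figure D3:**
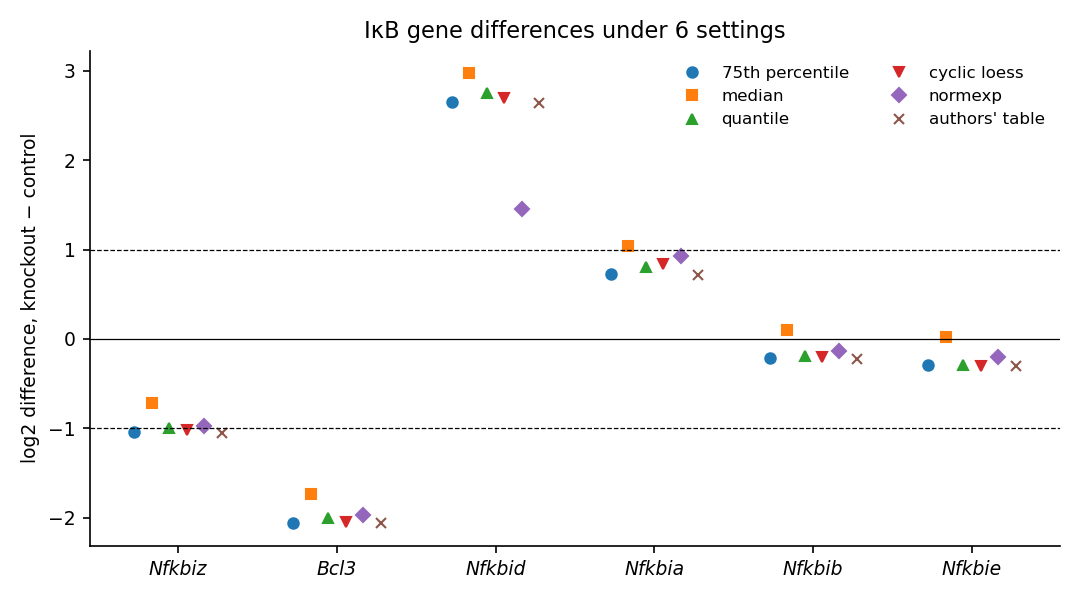
Difference of each IκB gene (log2, knockout minus control, vertical axis) under 6 settings: 75th percentile, median, quantile and cyclic loess scaling, normexp background correction, and the authors' deposited table. Dashed lines mark 2-fold. Bcl3 and Nfkbid lie beyond 2-fold under each setting, Nfkbiz lies near the lower line and short of it, at -0.72, with median scaling, and Nfkbia crosses the upper line with median scaling only.

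Other genes of the pathway were taken from 8 lists with 76 genes, of which 57 were measured on both arrays. At least 2-fold lower were 7 of the 57 (12.3%), and 2 (3.51%) were at least 2-fold higher. The shares over all measured genes are 4.40% and 3.03%. Their median difference was -0.03, against -0.04 over all measured genes.

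No NF-κB subunit passed 2-fold. Rela, which encodes the p65 subunit that IκBα and IκBβ hold in the cytoplasm, had signals of 2480 and 1560 on the control and knockout arrays, a difference of -0.89 ± 0.20. Its second measured probe gave -0.92. Nfkb2 encodes p100, itself an IκB-like protein and the precursor of p52, the partner of Bcl-3. Its signals were 586 and 369, also a difference of -0.89 ± 0.20. Relb, the partner of p100 and p52, was the one subunit on the other side, with 536 and 871 (0.48 ± 0.20). Rel was not well above background on either array, and Nfkb1, the gene of p50, had no named probe that could be analysed.

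The IKK and its upstream kinases had a median of 0.28, and none of the 10 measured passed 2-fold. The catalytic subunit gene Ikbkb differed by 0.04 ± 0.20, the scaffold gene Ikbkg by 0.32 ± 0.21, and Chuk, the other catalytic subunit gene, by -0.29 ± 0.21. A second, dimmer Chuk probe gave -1.78 ± 0.28, so the probes of this gene disagree in size. Other measured Ikbkg probes gave 0.01 ± 0.33 and 0.64 ± 0.21. Tab1, an adaptor of the kinase TAK1, differed by 0.28 ± 0.20. The 5 genes of the ubiquitin ligase that marks phosphorylated IκB had a median of 0.37, and none passed 2-fold. Rbx1, its RING subunit, was at -0.03 ± 0.20, and its other measured probes gave -0.03 and 0.57.

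Among 5 IκB-related genes, Nfkbil1, named for its likeness to IκB, was 2.88-fold higher, with signals of 42.9 and 144 (1.53 ± 0.23). Under normexp it was 0.79, short of 2-fold. Nkiras2, a Ras-like protein that binds IκBβ, differed by 0.25 ± 0.20. The feedback inhibitors of the pathway had 1 of 8 measured members past 2-fold, on the lower side, where 4.40% of all measured genes were. This was Tnfaip3, the gene of the ubiquitin-editing enzyme A20, with signals of 12600 and 5890 (-1.32 ± 0.20). It was at -0.999 under median scaling. Tax1bp1, an adaptor of A20, differed by 0.07 ± 0.20. The median of this list was -0.15 and turned to 0.17 under median scaling.

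Receptors and adaptors that act upstream of Nfkbiz had 1 of 12 measured members past 2-fold, on the lower side, where 4.40% of all measured genes were. Irak3, an inhibitor of IL-1 and Toll-like receptor signalling, had signals of 719 and 221 (-1.92 ± 0.20), and its other measured probes gave -1.75 and -1.26. The IL-17 receptor subunit gene Il17rc differed by -0.03 ± 0.20. The adaptor genes Traf6 and Myd88, chosen after their values were seen, lay just under 2-fold, at 0.98 ± 0.20 and 0.97 ± 0.07. With median scaling both passed it, at 1.30 and 1.29. The smaller SE of Myd88, like that of Ptgs2 below, comes from averaging several spots of the same probe on the same arrays.

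Factors that control the decay of Nfkbiz mRNA had a median of -0.52. Of the 7, 2 were lower by 2-fold or more, against 4.40% of all measured genes. Arid5a, which protects certain cytokine mRNAs from decay, had signals of 214 and 55.0 (-2.18 ± 0.22), but a second probe gave 0.87 ± 0.23, in the opposite direction. Zc3h12c, a relative of the ribonuclease Regnase-1, had 120 and 67.9 (-1.04 ± 0.21), and was at -0.72 under median scaling. Zfp36, which encodes the RNA-binding protein tristetraprolin, differed by -0.79 ± 0.20, and its second probe gave -0.79.

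Of 21 listed genes described elsewhere as dependent on IκBζ, 19 had a probe that could be analysed. Of these, 9 were not well above background on either array, Lcn2 and Il17c among them. A further 7 were measured on both arrays, and 3 were well above background on the knockout array only. At least 2-fold lower were 3 of the 7, against 4.40% of all measured genes. The β-defensin gene Defb14 had signals of 525 and 113 (-2.44 ± 0.21), the chemokine gene Ccl20 588 and 202 (-1.76 ± 0.21), and the prostaglandin synthase gene Ptgs2 213 and 80.3 (-1.63 ± 0.07, second probe -2.06). S100a8, a calprotectin subunit, was at least 2-fold higher at 65.7 and 178 (1.22 ± 0.22), which normexp placed at 0.68. Il1f9, the gene of the cytokine IL-36γ, was higher by less than 2-fold, at 450 and 959 (0.87 ± 0.20, second probe 0.53), and passed 2-fold with median scaling (1.19). The calprotectin partner of S100a8, S100a9, differed by -0.44 ± 0.20. Il6 was well above background on the knockout array only, with signals of 15.7 and 67.7. The ratio, 3.70-fold higher in the knockout, is taken against a control signal not well above background, and so is not a lower limit. Normexp gave 0.48 on the log2 scale, so the size of the Il6 difference depends on the background correction.

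**Figure D4:**
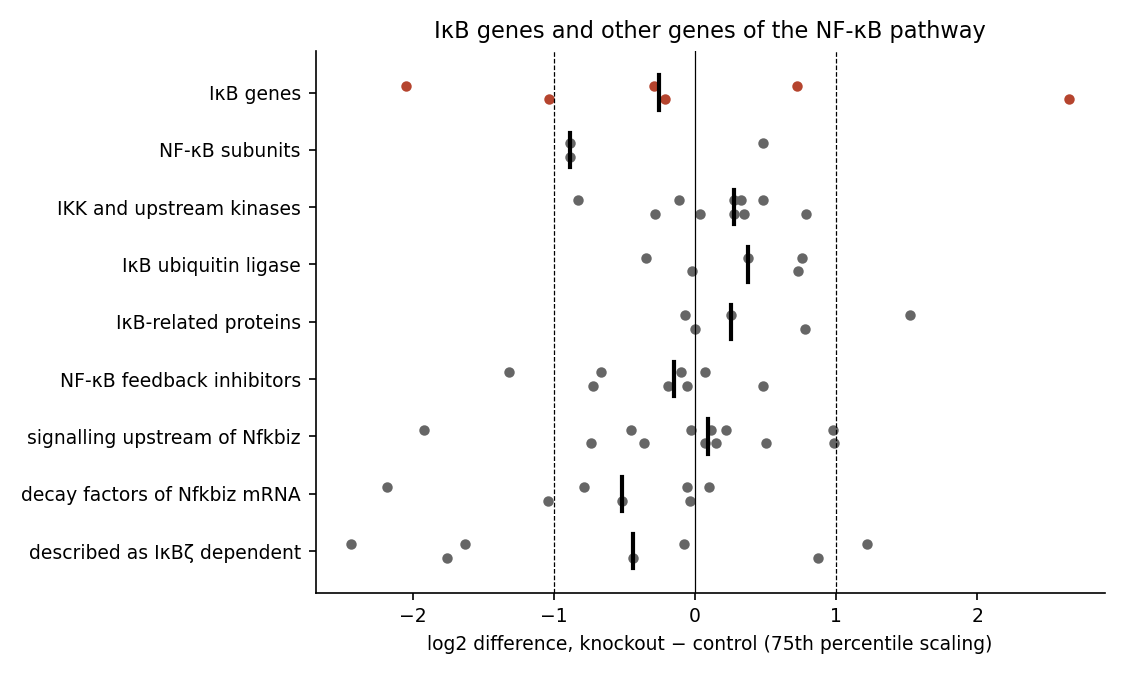
Difference (log2, knockout minus control, horizontal axis) of the 6 IκB genes (red) and of the measured genes of 8 pathway lists (grey), with each row's median as a black bar and dashed lines at 2-fold. The IκB genes span -2.05 to 2.65, past the range of each of the other rows on the upper side.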

How the data were processed

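Each of the 2 genotypes was measured on 1 single-colour Agilent array, quantified by the authors with Agilent Feature Extraction 10.7.3.1 on a design annotated on mm9, per the file headers. The deposited intensity of each spot is linear, background-subtracted and detrended within the array, and is given to 3 digits. The authors' deposited log2 table sums to 0 over both arrays for every probe (largest sum 1e-06) and tracks the scanner difference (Pearson r = 1.00 across genes), with column medians of 0.14 and -0.14. It holds differences, not levels, and its scaling is not stated in the labels. Flags for saturation, background and outlier spots are 0 or 1 in the deposited files.

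Spots marked as outliers were dropped, log2 spots of a probe were averaged, and the 75th percentile over non-control spots was subtracted. Of 41174 probes, 26682 (64.8%) were named by accession in a RefSeq table (GRCm38.p6), and a gene was read at its brightest probe. A gene was measured when well above background and not saturated on both arrays, and counts use a 2-fold threshold with no test. Alternatives were median, quantile and cyclic loess scaling, normexp with offset 50 (limma 3.58.1, R 4.3.3), the authors' table, the mean over probes, thresholds of 1.5 and 3, and no background filter. Normexp was run on spot medians without non-uniform spots, a choice made after seeing the data. Other steps used pandas 2.3.3 and numpy 2.4.6 in Python 3.11.15, with figures from matplotlib 3.10.9, and the calling code was tested on simulated data.

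The IκB genes and the lists were chosen with earlier results of these data known. Named genes were all IκB genes, NF-κB subunits and IKK subunits, and from each list its members past 2-fold and its brightest member within 2-fold. Traf6, Myd88, Lcn2, Il17c and Il1f9, and the cell type markers named, fall outside that rule and were chosen after their values were seen. No gene was named for likeness of pattern, since over 2 arrays every profile correlates at 1 or -1.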

Additional observations from a re-analysis of the deposited data

How the results depend on the processing

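No paired analysis was possible because there is only 1 array for either genotype. Median scaling shifted every gene by 0.32: Nfkbiz was -0.72, Bcl3 -1.73, Nfkbid 2.97, Nfkbia 1.04, Nfkbib 0.11 and Nfkbie 0.026. Normexp gave 1.45 for Nfkbid and 0.93 for Nfkbia. Other settings moved no IκB gene by more than its SE. The count of IκB genes at least 2-fold higher (1) was 2 with median scaling and at 1.5-fold, and the count lower (2) was 1 with median scaling, quantile normalization, normexp and at 3-fold. Over all genes, 375 higher and 545 lower became 953 and 294 with median scaling, 183 and 231 after normexp, 668 and 1420 with no background filter, and, at thresholds of 1.5-fold and 3-fold, 1253 and 1634 or 105 and 188. Of the pathway lists, 2 higher genes became 9 with median scaling, 4 with quantile normalization, 0 with normexp and 6 with no filter, which also raised the 7 lower genes to 11.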
